A study of Mus musculus with 26 samples.

Results

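Homologous recombination and Fanconi repair genes were followed as a group of 33 genes, given by name, in RNA-seq tables of cultured mouse pro-B cells that had lost Brg1. The names fall into 9 damage sensors and signalling genes, 15 recombination genes, 8 Fanconi genes and Msh6. Every one of the 33 was found by its symbol among the 19404 genes of the deletion table and among the 19719 genes of the knockdown table. Brg1, encoded by Smarca4, is the ATPase of the SWI/SNF complexes, which move nucleosomes and open chromatin. The study asked what these complexes do in the making and the growth of B cells.

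All cells were of the C57/Bl6 strain and grew out of B220+ marrow cells over 7 days with IL7 and SCF as growth factors. For the deletion experiment 2 libraries came from Brg1+/+ x ER-Cre cells and 2 from Brg1F/F x ER-Cre cells. Both groups carried ER-Cre, a Cre recombinase switched on by tamoxifen, and both received 0.3 µM tamoxifen over the last 60 h. In the knockdown experiment all cells were Rag1-/-, which cannot start antigen receptor rearrangement, and 3 libraries with a control shRNA stood against 3 with a Brg1 shRNA. The retrovirus was given on days 3 and 4, and cells with its hCD25 mark were pulled out with beads 2 days later. The labels do not say whether cultures of the same group were set up from different animals, so p-values measure the spread between these libraries alone, and the age of the mice is not given in the sources used here.

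Cells mend a break through both DNA strands either by joining the ends directly or by homologous recombination, which copies the lost stretch from the sister chromatid and therefore works after replication has begun. Sensor kinases and ubiquitin ligases mark the break, nucleases trim its ends, and BRCA proteins prepare the trimmed strand to pair with its sister. The Fanconi pathway unhooks crosslinks that tie the strands together and hands the resulting break to the same machinery. Developing B cells make breaks on purpose at their antigen receptor genes, where end joining is the usual route, while growth in IL7 keeps pro-B cells replicating and dividing. Many recombination and Fanconi genes are known to be transcribed most in S phase under E2F factors.

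The deposited tables hold 1 mean per group and gene in normalized reads, that is reads divided by a library size factor, and in the deletion table each mean could be taken apart into the whole reads of its 2 libraries. The deletion libraries held 8792246 to 11576451 reads and the knockdown libraries about 5201290 to 11051850. Libraries carry no replicate number here and are named by depth as the deeper and the shallower of their group. The targeted gene, Smarca4, fell from 17898 to 6067 normalized reads on deletion, a 2.95-fold drop with the authors' DESeq adjusted p = 0.0008, and from 13340 to 6743 on knockdown, a 1.98-fold drop with adjusted p = 0.0472. The pro-B marker Cd79b was high, at 8045 normalized reads in deletion controls. Markers of myeloid cells were also present in the deletion cultures. The 13 resolved of 15 summed to 4394 and 8452 normalized reads in the deeper and shallower control. They summed to 4833 and 2694 in the deeper and shallower Brg1-deleted library. Lyz2 was the largest part of each sum, at 2086, 5288, 3335 and 1527 in that order. The markers did not move together, as S100a9 read 182, 2.00, 0.864 and 134, and C1qb 11.7, 210, 117 and 9.30. Markers of T, innate lymphoid and mast cells summed to 450, 732, 538 and 187 in the same order. Of these, Thy1 read 307, 224, 55.3 and 29.1 and Cpa3 100, 252, 266 and 82.6, while Cd3e ran from 0 to 10.0. Of the 11 pro-B markers only 3 were resolved by library, Vpreb2, Rag2 and Dntt. They summed to 3014, 2233, 710 and 2371 in that order, lowest in the deeper Brg1-deleted library. These 3 are a small part of the list. The group means of all 11 summed to 51844 in deletion controls and 76425 after deletion, although 6 of the 11 had a lower mean after deletion.

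After Brg1 deletion, 27 of the 33 repair genes (81.8%) had a lower mean than in controls, where 50.1% of all genes and 51.3% of the 7362 genes of like level did. Like level means here a mean within the range of the repair genes, 125 to 1609 normalized reads. Their median log2 fold change was -0.41, beside -0.0014 over all genes and -0.02 at like level. None of the 33 passed the authors' DESeq test at an adjusted p under 0.05, which 1.47% of all genes did and 2.39% of those at like level. At an unadjusted p under 0.05 there were 5 of 33 (15.2%), Rad51d higher and Chek1, Nbn, Exo1 and Fancm lower. This share is near the background of 9.52% over all genes (4.23% higher and 5.29% lower) and 15.4% at like level. limma on the reads of single libraries called 0 of 33 and 0 of 17032 genes (0.00%), with 9 of 33 at an unadjusted p under 0.05 beside 17.0% of all genes. The lower means were thus many and small, and no single gene of the group passed a test.

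**Figure D1:**
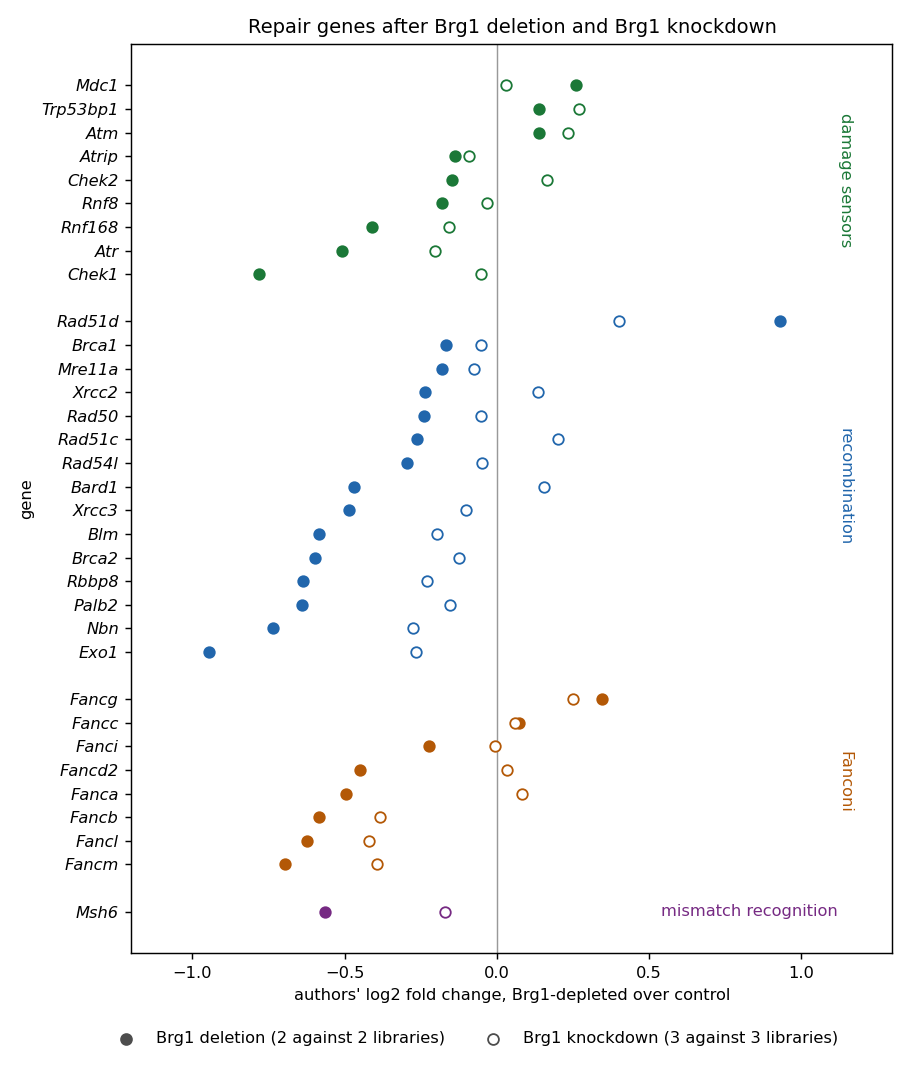
The authors' log2 fold change of each repair gene (horizontal axis) after Brg1 deletion (filled points) and Brg1 knockdown (open points), by role. In deletion 27 of 33 points lie left of 0 with Exo1 farthest, Rad51d lies alone on the far right, and in knockdown the points crowd around 0; none passed the test.

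The lower level was uneven between the Brg1-deleted libraries. Set against the mean of the 4 libraries, the median repair gene stood at 0.25 in the deeper and 0.03 in the shallower control, and at -0.35 in the deeper and 0.04 in the shallower Brg1-deleted library, on the log2 scale. By this median the shallower Brg1-deleted library lay at the level of the shallower control and below the deeper control. The lowest values belong to the deeper Brg1-deleted library. In the shallower control and shallower Brg1-deleted library, recombination genes stood at 0.14 and 0.01, Fanconi genes at 0.04 and 0.03, and sensors at -0.04 and 0.06. Which control goes with which Brg1-deleted library is not given, so libraries matched by depth need not match by culture. Markers of T, innate lymphoid and mast cells had medians of -1.03 and 1.05 in the deeper and shallower control. After deletion they stood at 0.78 (deeper) and -0.90 (shallower). By these markers each control was nearer the Brg1-deleted library of the other depth. S100a9 and C1qb, given above, lay the same way. The myeloid medians did not, at 1.10, 1.13, -1.26 and -0.49 in that order. Whether this follows shared cultures was not tested. Of the 33 genes, 30 were lower in the deeper than in the shallower Brg1-deleted library, by a median of 0.35 in size, and 25 were higher in the deeper than in the shallower control. Without the deeper Brg1-deleted library the median difference of the repair genes was -0.22, and without any one of the other libraries it was -0.56 to -0.28. Counting error alone gives a standard error of 0.04 to 0.13 on the log2 scale for these genes, while the limma standard errors, which hold the spread between libraries, were 0.16 to 0.39.

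Cell cycle genes were low in the same library. The 13 resolved of 20 S phase and replication genes stood at 0.38 and 0.31 in the deeper and shallower control and at -0.63 (deeper) and -0.09 (shallower) after deletion. The 11 resolved of 16 mitosis genes stood at 0.22, 0.15, -0.47 and 0.02 in that order. In the authors' means, 19 of 20 S phase genes were below 0 with a median of -0.76, and 15 of 16 mitosis genes with a median of -0.40; none was called. Cdc6, which loads the replicative helicase, had means of 749 in controls and 376 after deletion (DESeq adjusted p = 0.1286), Ccne2 626 and 315, Tyms 1011 and 536 and Mcm6 5076 and 2524. The mitotic genes Bub1b, Ccnb1, Plk1 and Cdk1 had log2 fold changes of -0.65, -0.56, -0.55 and -0.54. In knockdown 17 of 20 S phase genes were below 0 with a median of -0.24. Of the mitosis genes 14 of 16 were below 0 there with a median of -0.18, and none of either list was called. These RNA values come from bulk cultures, in which fewer cells in a phase of the cycle and less RNA per cell cannot be told apart. The 3 resolved of 11 pro-B markers were low in the deeper Brg1-deleted library too, with a median of -1.15. Vpreb2, of the surrogate light chain, read 852 and 758 in the deeper and shallower control and 312 and 1154 in the Brg1-deleted libraries. What part the cell cycle genes, or the pro-B and myeloid markers given above, have in the values of the repair genes was not tested.

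**Figure D2:**
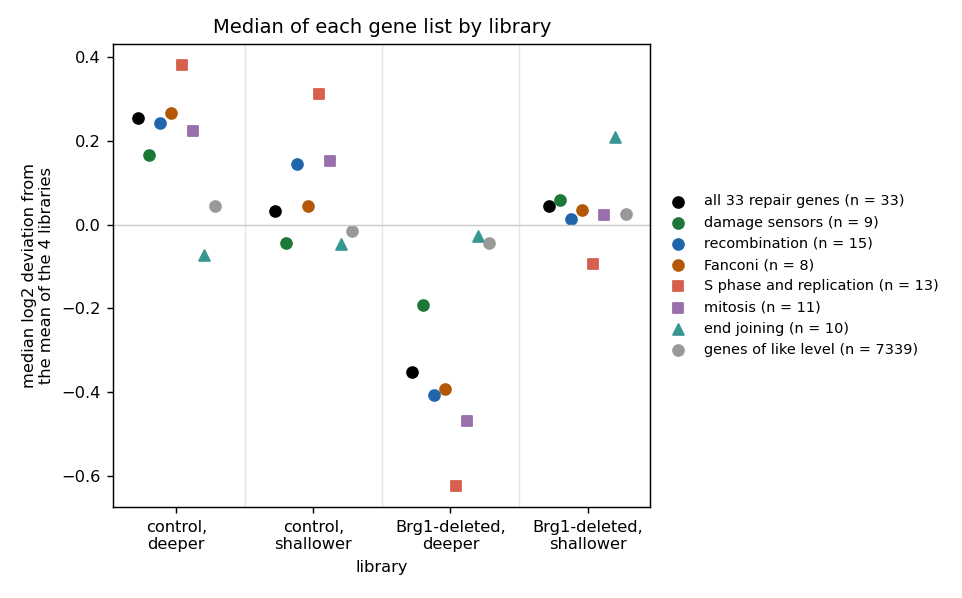
Median log2 deviation from the mean of the 4 deletion libraries (vertical axis) for each gene list in each library (horizontal axis); each point is 1 list in 1 library. Repair, S phase and mitosis genes all lie lowest in the deeper Brg1-deleted library, where the repair genes stand at -0.35, while end joining genes do not.

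Between groups, 16 of 33 repair genes (48.5%) had both Brg1-deleted libraries below both controls, where 23.7% of all resolved genes and 30.6% of those at like level did. In the other direction there were 3 of 33 (9.09%), Atm, Mdc1 and Rad51d, beside 24.5% of all and 28.1% at like level. In the remaining 14 genes the libraries of the groups overlapped. By role, 8 of 15 recombination genes, 4 of 8 Fanconi genes, 3 of 9 sensors and Msh6 lay wholly lower. Centring each library on its median added Rad51c to the lower ones, which made 17. Of the resolved cell cycle genes, 11 of 13 S phase genes (84.6%) and 6 of 11 mitosis genes (54.5%) lay wholly lower.

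**Figure D3:**
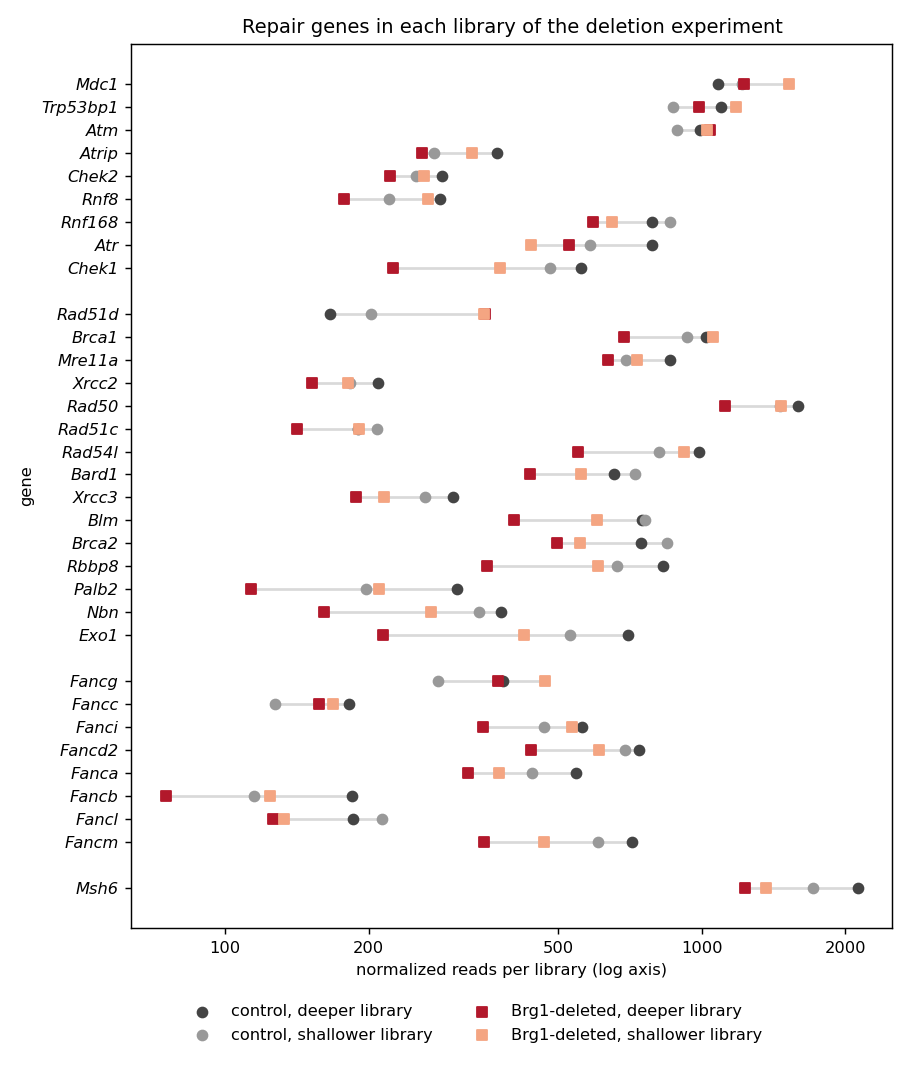
Normalized reads of each repair gene (log axis) in each of the 4 deletion libraries, by role; grey circles are controls, squares the Brg1-deleted libraries, and the bar spans the 4 values. The deeper Brg1-deleted library is the lowest of the 4 for most genes, and 16 of 33 genes have both Brg1-deleted libraries below both controls.

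Among the sensors, the kinase Chek1, which halts the cycle when replication forks stall, had the lowest adjusted p. It measured 558 and 479 normalized reads in the deeper and shallower control and 225 and 378 in the deeper and shallower Brg1-deleted library. The values of the other repair genes follow in the same order, the deeper before the shallower library. For Chek1 both Brg1-deleted values were lower, but they lay farther from each other than the controls did. The authors' means were 519 and 302, a 1.72-fold difference with DESeq adjusted p = 0.4149. In limma the log2 difference was -0.82 with a standard error of 0.29 and adjusted p = 0.258. Chek1 lies on chromosome 9 from 36708482 to 36727065 (mm10, minus strand).

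Atr, the kinase upstream of Chek1, read 788 and 583 in the controls and 526 and 438 in the Brg1-deleted libraries, without overlap and with a log2 fold change of -0.51. Atrip, the partner that brings Atr to bare single strands, read 371 and 274 against 258 and 329, and there the groups overlapped. Atrip also shares its strand and 2406 bases with Trex1 (means 77.6 and 158). Rnf168, a ubiquitin ligase that marks chromatin beside a break, read 787 and 857 against 590 and 648, again without overlap. The earlier ligase Rnf8 read 283 and 220 against 178 and 266, with overlap. The Rnf8 row shares its strand and 26789 bases with a separate row named RNF8 (means 497 and 557), so its reads may be split between both rows. Chek2, the kinase that acts below Atm, read 285 and 251 against 222 and 262, a log2 fold change of -0.15 with overlap.

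The other 3 sensors had higher means after deletion. Atm, the main kinase that breaks through both strands switch on, read 993 and 888 in the controls and 1041 and 1027 in the Brg1-deleted libraries. Its libraries did not overlap, yet the fold was 1.10. Mdc1, the scaffold that binds marked histone at the break, read 1082 and 1215 against 1226 and 1526, a log2 fold change of 0.26. Its highest control and lowest Brg1-deleted library nearly met. Trp53bp1, the 53BP1 gene, which shields ends from trimming and favours end joining, read 1097 and 872 against 987 and 1179 and overlapped. Over the 9 sensors the median log2 fold change was -0.15, with 6 below 0, and it stood at 0.04 without the deeper Brg1-deleted library.

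End resection genes had the lowest median of the recombination genes, -0.61, with 6 of 6 below 0. Exo1, the exonuclease that carries out long trimming, read 699 and 529 in the controls and 214 and 423 in the Brg1-deleted libraries. Both were below the controls, and they lay wider apart than the controls did. The authors' means of 614 and 319 differ 1.93-fold, the widest drop of the group, with DESeq adjusted p = 0.3627, and limma gave -1.01 with a standard error of 0.37. Exo1 lies on chromosome 1 from 175880778 to 175911396 (mm10, plus strand).

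Nbn, the subunit that links the MRE11 nuclease complex to Atm, read 379 and 341 against 162 and 271. Its groups did not overlap, and its means differed 1.67-fold with DESeq adjusted p = 0.5518. Rbbp8, the CtIP gene, which starts trimming together with that complex, read 831 and 664 against 355 and 607, also without overlap. Blm, the helicase that unwinds ends for Exo1 and later dissolves crossed strands, read 748 and 760 against 403 and 602. The other members of the MRE11 complex differed less: Mre11a, the nuclease, read 859 and 693 against 636 and 733. Rad50, the ATPase that tethers the ends, read 1589 and 1461 against 1119 and 1469. In both of these the shallower Brg1-deleted library lay among the controls.

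Of the BRCA genes and the others that act after trimming, 8 of 9 were below 0 with a median of -0.30. Brca2, a core mediator of recombination, read 746 and 846 in the controls and 497 and 555 in the Brg1-deleted libraries. Its Brg1-deleted libraries lay close together and below both controls. The authors' log2 fold change was -0.60 with DESeq adjusted p = 0.8122, and limma gave -0.60 with a standard error of 0.18 and adjusted p = 0.202. Palb2, the bridge between Brca1 and Brca2, had a larger difference of -0.64 but read 307 and 197 against 113 and 210, so that its groups overlapped. Brca1, the ligase that steers breaks towards recombination, read 1023 and 932 against 687 and 1055. Its shallower Brg1-deleted library held the highest of the 4 values. Bard1, the partner of Brca1, read 653 and 724 against 435 and 558 without overlap.

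Rad51c, Rad51d, Xrcc2 and Xrcc3, which work together in strand pairing, did not lean one way. Rad51d, on chromosome 11 from 82876434 to 82890614 (mm10, minus strand), read 166 and 202 in the controls and 352 and 349 in the Brg1-deleted libraries. These values nearly coincide, and both were above the controls. Its means of 184 and 350 differ 1.90-fold with DESeq adjusted p = 0.3357, and limma gave a log2 difference of 0.93 with a standard error of 0.21 and adjusted p = 0.143, the lowest of the 33. Xrcc3 read 301 and 263 against 188 and 215 without overlap. Xrcc2 read 210 and 183 against 152 and 181, its groups parted by a narrow gap. Rad51c read 190 and 208 against 142 and 191, with overlap. Rad54l, a motor of strand invasion, read 989 and 814 against 549 and 919.

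In the Fanconi core complex, which attaches ubiquitin at stalled forks, 4 of 6 genes were below 0. Fancm, the translocase that anchors the complex to DNA, read 716 and 604 in the controls and 349 and 466 in the Brg1-deleted libraries. Its groups did not overlap, and its means of 660 and 408 differ 1.62-fold with DESeq adjusted p = 0.5831. limma gave -0.70 with a standard error of 0.22. Fancl, the ubiquitin ligase subunit, read 185 and 213 against 126 and 133, a compact pair below the controls with DESeq adjusted p = 0.9789. Its partner Fancb read 184 and 115 against 75.2 and 124 and overlapped.

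Fanca, a large core subunit, read 544 and 441 against 323 and 376 without overlap. Over its whole length of 50277 bases Fanca is crossed on the opposite strand by Gm20388 (means 1338 and 1134). The dUTP method of these libraries marks strand, but whether the counting used it is not given in the sources used here. Fancg, which binds Fanca, read 383 and 279 against 373 and 469, a log2 fold change of 0.35 with overlap. Fancc, another subunit, read 182 and 127 against 157 and 169, a fold of 1.05. Of the pair that the core complex modifies, Fancd2 read 737 and 692 against 439 and 608 without overlap, and Fanci read 561 and 467 against 348 and 534 with overlap.

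Msh6, which recognises mismatched bases, was the most abundant of the group. It read 2127 and 1714 in the controls and 1232 and 1364 in the Brg1-deleted libraries. Its groups were well apart, and the log2 fold change was -0.57 with DESeq adjusted p = 0.8317 and a limma standard error of 0.18. In all, 15 of the 33 genes overlap another listed gene, 5 of them one on the same strand. The deposited tables mark 19 of the 33 as confounded, a mark that the sources used here do not define, and it was not used.

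Since many of these genes are known E2F targets, the 250 bases before the RefSeq start of each gene were searched. The promoters were those of the mouse assembly GRCm38.p6, the assembly of mm10. For some genes, among them Fancc, Chek1, Fanci and Fancl, this stretch lies inside the gene as placed in the deposited tables. For those genes the bases before the deposited start were not searched. Of the 33 genes, 26 had a promoter in the RefSeq set, and Xrcc2, Rbbp8, Nbn, Exo1, Rad51d, Fancd2 and Rad50 were not among them. The E2F letters searched on both strands were GCGGGAA, its close variant GCGCGAA, the form written GCGCCAA and, as the last of the set, the form written GCGGCAA. They were found in 11 of 26 repair genes (42.3%), in 17.6% of genes at like level and in 9.01% of all 27025 genes there. A gene was counted if any of its promoters held the letters. Counted by promoter, the share was 7.89% of 32851. The 11 were Bard1, Fancg, Chek2, Brca2, Blm, Rad51c, Fancm, Rnf168, Rnf8, Mdc1 and Fancb. The letters CCAAT of the NF-Y box were found in 15 of 26 repair genes (57.7%), in 41.0% of genes at like level and in 37.5% of all genes. The letters of the CHR element, TTTGAA or else the variant TTTAAA, were found in 2 of 26 (7.69%). Their share was 19.8% of genes at like level and 28.1% of all genes.

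In deletion the median log2 fold change was -0.41 for the 11 repair genes with E2F letters. It was -0.30 for the 15 without them in the stretch searched. Chek1, Fancl, Fanci and Fancc, whose stretch lies inside the gene, are among these 15. The 7 genes without a promoter in the set are in neither group. Over genes at like level the median was -0.093 with the letters and 0.0068 without. In knockdown the repair genes stood at -0.0329 with the E2F letters and -0.0525 without, the other way round. For CCAAT the deletion medians of the repair genes were -0.18 with the letters and -0.47 without. For the CHR letters, held by 2 genes, they were -0.325 and -0.352. None of these differences was tested. The sequences below, 5′ to 3′ with the E2F letters in capitals, show examples of each kind. Brca2 and Fancm carry the letters and had lower means, Mdc1 carries them at 2 places and had a higher mean, and Msh6 had a lower mean with none. These 4 were chosen after values and matches had been seen, from promoters that end before the gene's first base in the tables. A match of letters is a description and not a measured binding site.
Brca2, chr5:150522371-150522620, plus strand: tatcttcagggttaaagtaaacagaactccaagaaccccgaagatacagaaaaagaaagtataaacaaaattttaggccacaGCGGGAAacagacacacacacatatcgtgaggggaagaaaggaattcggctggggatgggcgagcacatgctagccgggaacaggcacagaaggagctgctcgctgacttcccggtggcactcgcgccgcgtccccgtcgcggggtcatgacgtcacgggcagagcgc
Fancm, chr12:65075353-65075602, plus strand: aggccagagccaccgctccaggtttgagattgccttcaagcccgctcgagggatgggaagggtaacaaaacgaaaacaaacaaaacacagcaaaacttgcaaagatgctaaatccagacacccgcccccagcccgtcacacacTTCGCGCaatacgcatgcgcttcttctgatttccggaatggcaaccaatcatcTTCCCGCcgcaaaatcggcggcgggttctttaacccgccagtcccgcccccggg
Mdc1, chr17:35841248-35841497, plus strand: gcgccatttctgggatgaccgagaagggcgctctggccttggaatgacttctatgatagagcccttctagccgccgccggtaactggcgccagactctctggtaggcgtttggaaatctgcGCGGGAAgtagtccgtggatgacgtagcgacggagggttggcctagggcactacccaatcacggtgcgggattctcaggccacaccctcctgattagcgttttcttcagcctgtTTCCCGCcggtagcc
Msh6, chr17:87974800-87975049, plus strand: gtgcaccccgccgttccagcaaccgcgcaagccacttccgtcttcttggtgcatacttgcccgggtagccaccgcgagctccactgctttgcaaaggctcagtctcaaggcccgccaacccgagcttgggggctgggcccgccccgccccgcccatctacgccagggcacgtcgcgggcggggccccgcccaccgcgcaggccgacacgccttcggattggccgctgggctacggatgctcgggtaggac
In Brca2 the letters begin 168 bases before the start. In Fancm they begin 107 and 54 bases before it, and in Mdc1 129 and 15 bases before it.

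After Brg1 knockdown the means of the repair genes lay close to those of the control. Of the 33, 21 (63.6%) were below 0, where 50.3% of all genes and 53.1% at like level were, and their median log2 fold change was -0.05. The authors' DESeq test called 0 of 33 at an adjusted p under 0.05 (0.218% of all genes) and 0 of 33 had an unadjusted p under 0.05 (2.74% of all genes and 3.94% at like level). In either direction the folds ran from 1.00 to 1.34, beside 1.05 to 1.93 in deletion, a contrast that was not tested. Smarca4 itself fell 1.98-fold here and 2.95-fold in deletion, and the cells, the time and the way of losing Brg1 differ as well, so that the sizes cannot be compared as doses. The values of single knockdown libraries could not be recovered, so no spread stands beside these means.

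By role, the median in knockdown was -0.03 for the sensors, -0.07 for recombination and 0.01 for Fanconi genes. End resection genes were again all below 0, 6 of 6, with a median of -0.21. Exo1 went from 697 to 580 normalized reads and Nbn from 387 to 320. Rbbp8 went from 802 to 685. The lowest log2 fold changes belonged to Fanconi core genes: Fancl from 217 to 162, Fancm from 596 to 454 and Fancb from 147 to 113, with log2 fold changes of -0.42, -0.39 and -0.38. Rad51d, from 157 to 207, was again the highest of the group at 0.40. Chek1, at 512 and 494, and Brca2, at 661 and 607, had nearly equal means, unlike in deletion, though the difference between the experiments was not tested.

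Set side by side, 21 of 33 genes (63.6%) were below 0 in both experiments and 6 above 0 in both, and the direction was the same in 27 (81.8%). Over genes of like level the share with the same direction was 81.2%, and 42.7% of them were below 0 in both. Over all genes in both tables these shares were 71.9% and 35.6%. The shared direction is therefore near the background at like level. The 6 genes in which the directions differed, Chek2, Bard1, Rad51c, Xrcc2, Fanca and Fancd2, were all below 0 in deletion and above 0 in knockdown. In 30 of 33 genes the deletion value was the farther from 0. Genes of like level also spread wider in deletion, with quartiles of -0.37 and 0.33, than in knockdown, with quartiles of -0.19 and 0.17. Across the 33 genes the log2 fold changes of the experiments correlated with Pearson r 0.78 and Spearman rho 0.78, and across 7359 genes of like level with 0.75 and 0.79. The experiments share no control libraries, and genes are not independent replicates.

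Levels of different genes were compared per kilobase of exon. In deletion controls they ran from 19.6 normalized reads per kilobase for Fancc to 451 for Msh6, with a median of 90.0. Msh6 was followed by Rad50 at 284, Rbbp8 at 193, Rnf168 at 184 and Mdc1 at 155. The lowest after Fancc were Xrcc2 at 37.7, Rad51c at 45.4, Palb2 at 46.5 and Rad51d at 49.5, while Xrcc3 stood at 103. With 94.3 after deletion, Rad51d lay near the middle of the group. The order was nearly the same in the Rag1-/- controls, with a Spearman rho of 0.97 over the 33 genes, although each table was normalized on its own.

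**Figure D4:**
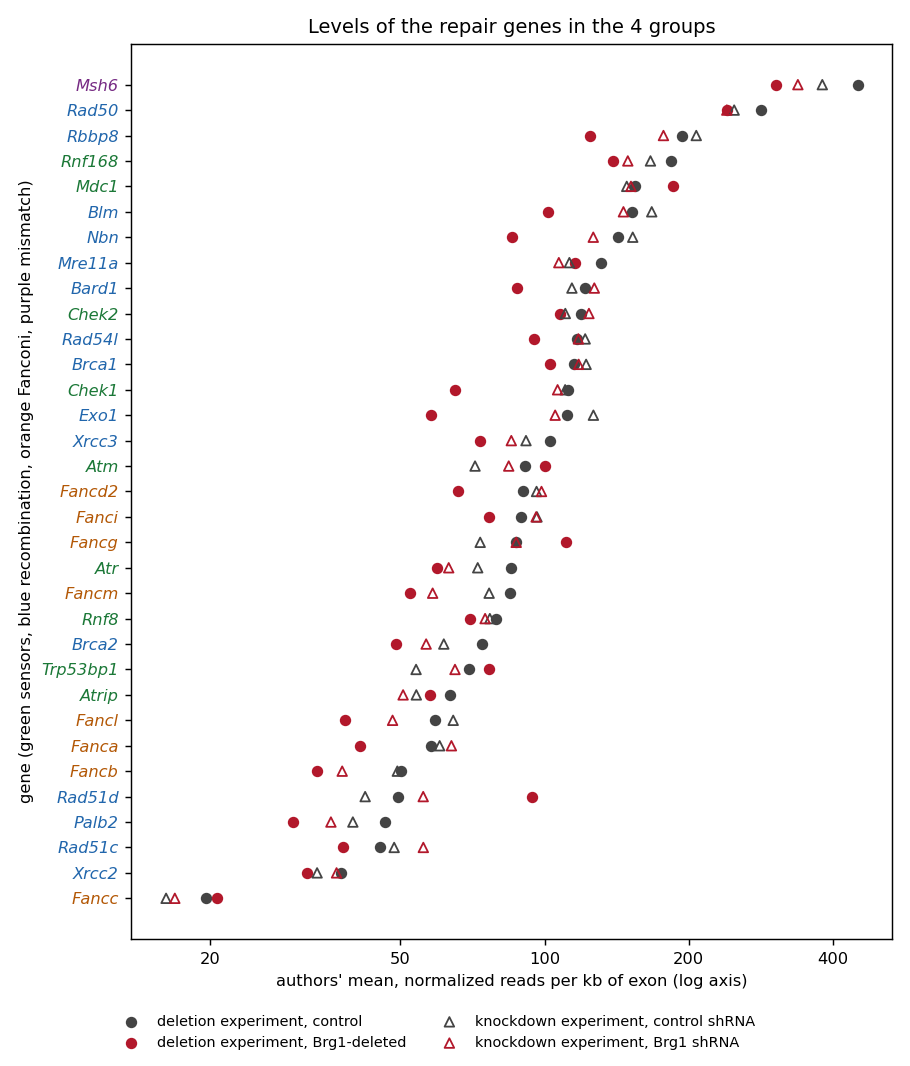
The authors' group means per kilobase of exon (log axis) of the 33 repair genes, ordered by the deletion controls; circles are the deletion and triangles the knockdown experiment, dark for controls and red for Brg1-depleted groups. Msh6 is highest at 451 and Fancc lowest at 19.6, and the red circles lie left of the dark ones in 27 of 33 genes.

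Other genes of the same pathways, taken from lists of textbook members, were read beside these 33, with values given as the control mean and then the Brg1-deleted mean. Of 26 further recombination genes, 21 were below 0 in deletion with a median of -0.46, and 19 in knockdown with a median of -0.12. None was called. The lowest adjusted p among them belonged to Rmi2, a partner of Blm, at 477 and 247 normalized reads (DESeq adjusted p = 0.3351). Rpa3, of the complex that coats bare strands, stood at 452 and 252, and Polq, the polymerase of a back-up joining route, at 659 and 407. Mus81, a nuclease that cuts crossed strands, had the higher mean after deletion, at 196 and 333.

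Further Fanconi genes lay on both sides of 0. Of 16 on the list 13 were found, 6 of them below 0 in deletion, with a median of 0.11 and none called. Usp1, which removes ubiquitin from the pair of Fancd2 and Fanci, read 2985 and 2006, and Rad18, a ligase of stalled forks, 535 and 359. The crosslink nucleases Ercc4 (216 and 327) and Fan1 (42.5 and 73.3) were higher after deletion. Among 19 further sensor and checkpoint genes 16 were below 0, with a median of -0.30 and none called. The phosphatase Cdc25a, which drives entry into S phase, was the nearest to a call, at 1097 and 535 with DESeq adjusted p = 0.1056. Parp1, a sensor of strand nicks, read 4836 and 2664, Ube2n, the conjugating enzyme that works with Rnf8, 1455 and 875, and Wee1, a kinase that holds back mitosis, 600 and 379. All 9 other mismatch repair genes were below 0 in deletion, with a median of -0.33 and none called. Of the replication factors on that list, the clamp Pcna read 5486 and 3338 and the ligase Lig1 3168 and 2255.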

How the data were processed

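Polyadenylated RNA of 10 libraries in 4 groups was used, and the other 16 samples of the series were not analysed here. Groups follow the sample titles. The submitters' processing notes name CASAVA, RSEM and DESeq, without versions, and the mm10 build. Group columns give the authors' signal in normalized reads, that is the mean of reads over size factors, judged from headers and values. Per the file headers, the authors made the log2 fold change, the linear fold, the p-value and its Benjamini-Hochberg form. No header names the test behind the p-values, and it is called here by the tool of those notes. Nothing was refitted for the calls, which use an adjusted p under 0.05.

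Each deletion mean was solved as a sum of whole reads from 2 libraries (tolerance 6e-05). A solution was found for all 19404 genes (100%), where 2.85% of random values from 10 to 100 had one. In 18610 genes (95.9%) it was the only one, as for all 33 repair genes. In the knockdown table, with 3 libraries per group, only the depths were found. R 4.3.3 with limma 3.58.1 (trended variance) took log2 of reads plus 0.5, divided by size factors, of genes whose mean reached 1. On simulated deletion data of 18497 genes, 99.9% of the 16815 with 1 solution were resolved right. limma on 16022 of these found 63.6% of the 77 genes set 2-fold apart and 100% of the 76 set 4-fold apart, with 3 false calls. The simulation gave all genes the same spread setting, smaller than may be real. In the real data limma called 0 of 17032 genes, although the means of Thy1 differed 6.30-fold. The simulated shares therefore do not measure what limma could find there.

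Alternatives were other thresholds, filters, a pseudocount, centring and leaving out each library. Those on single libraries in the no-overlap counts, on the mean of log2 values and on overlapping genes were chosen after seeing the data. The repair genes, the lists and the tests were chosen with earlier results of these data known. Every repair gene is named; of each other list, up to 4 genes with the lowest adjusted p in deletion and every called gene. Some genes of the lists are not reported here. The rest ran in Python 3.11.15 (matplotlib 3.10.9, scipy 1.17.1, pandas 2.3.3, numpy 2.4.6).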

Additional observations from a re-analysis of the deposited data

How the results depend on the processing

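The count of called repair genes was 0 in both experiments under each alternative run: an adjusted p under 0.1, a 1.5-fold minimum, adjustment over the listed genes or over those with a mean of at least 10, and repair genes without an overlapping gene. In deletion it was also 0 with limma and in each limma fit without 1 library, where 0 to 46 of all genes were called, the 46 without the shallower control. The median in deletion was -0.41 with a mean of at least 100, a pseudocount of 1, centring and the mean of log2 values, and ran from -0.56 to -0.22 when 1 library was left out. In knockdown it was -0.05, and -0.04 when centred. The yardstick for these medians, 0.23, is the spread between the deletion libraries and is lenient, above all for knockdown. Without the deeper Brg1-deleted library, the medians of recombination and Fanconi genes were -0.22 and -0.23, and Atrip, Brca1, Fanci, Rad54l and Rnf8 stood at 0.045, 0.11, 0.061, 0.035 and 0.094. Without the deeper control Atrip stood at 0.088, and without the shallower control Fancc stood at -0.16 and Trp53bp1 at -0.024. Fanci in knockdown stood at 0.0056 when centred. The cause of these shifts was not tested. For single genes 288 alternatives kept the sign and these 9 did not. No paired analysis was possible because the columns carry no replicate numbers. In deletion the counting error was below the spread between libraries; depth was not tested as a limit on the calls.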

Other observations

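End joining genes, the other route of break repair, lay on both sides of 0. Of 11, 5 were below 0 in deletion with a median of 0.17 and none was called, and 7 in knockdown with a median of -0.11. By library their median stood at -0.07 and -0.05 in the deeper and shallower control and at -0.03 (deeper) and 0.21 (shallower) after deletion, so that the deeper Brg1-deleted library was not low here. Single genes differed widely, given here as the control and then the Brg1-depleted mean. Polm, a polymerase that fills gaps at joined ends, read 272 and 579 normalized reads with DESeq adjusted p = 0.1321. Xrcc5, the large Ku subunit that caps ends, read 309 and 139 with DESeq adjusted p = 0.1736. Lig3, a ligase of nicks and back-up joining, had a log2 fold change of -0.46. By library, Dntt, which adds bases at the joins of antigen receptor genes and marks pro-B cells, read 1560 and 986 in the deeper and shallower control and 81.2 and 592 in the Brg1-deleted libraries, an unequal pair.

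p53 targets, which rise when damage is sensed, were above 0 in 9 of 12 genes in deletion with a median of 0.21, and in 10 of 12 in knockdown with a median of 0.38, and none was called. Gadd45a, a stress gene that slows the cycle, came nearest, at 117 and 289 in deletion with DESeq adjusted p = 0.0612, and at 80.3 and 130 in knockdown with adjusted p = 1. Trp53inp1, which p53 turns on under stress, read 3878 and 7386 in deletion, the death gene Bbc3 260 and 409, and Mdm2, the ligase that removes p53, 1080 and 1414. The 3 targets below 0 in deletion are not named here. The log2 fold changes of the list ran from -1.61 to 1.31, the highest being that of Gadd45a.

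Markers of pro-B cells lay on both sides of 0 in deletion, 6 of 11 below, with a median of -0.02. Of them 1 was called: Cd79b, a subunit of the B cell receptor, rose from 8045 to 20542 (DESeq adjusted p = 0.0106). Vpreb1, of the surrogate light chain, had means of 3695 and 2391, and Dntt of 1273 and 337. Of 14 listed myeloid markers 13 were below 0, with a median of -0.66. The granule genes Prtn3, Ctsg and Elane fell 5.44-fold, 5.76-fold and 6.93-fold, and Ly6c2, a surface protein of monocytes, fell 7.54-fold, all 4 with DESeq adjusted p of 0.015 and below. Of 12 markers of T, innate lymphoid and mast cells 8 were below 0 and 4 above, with a median of -0.30. Thy1, a surface protein of T and innate lymphoid cells, fell 6.30-fold (DESeq adjusted p = 1.07e-05) and was the called one, while Klrb1c, of natural killer cells, had means of 3.93 and 22.9 and Cd4 of 5.98 and 11.1, neither called. In knockdown the myeloid markers summed to 534 in the control and 531 in the Brg1 shRNA group.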
